A study of Homo sapiens with 4 samples.

Results

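The regions described here are the pericentromeric flanks of 15 human chromosomes, which are the 2 Mb of sequence on either side of the centromere gap in the hg19 assembly. The mark measured was H3K9me3, trimethylation of lysine 9 of histone H3, by immunoprecipitation of chromatin followed by sequencing. The cells were U2OS, a long-established line from a human osteosarcoma. The flanks were chosen by position alone. On 13 chromosomes they border a gap of 3 Mb, and on chromosomes 1 and 16 they border the larger gaps between the short and long arm. This gave 30 flanks of 60 Mb in all, or 1.98% of the summed spans of chromosomes 1 to 22 and X. They held 5274 peaks of the first deposited peak list (list 1) and 4714 of the second (list 2), of 326674 and 264919 on those chromosomes.

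The series comprised 2 samples precipitated with an H3K9me3 antibody and 2 input samples without antibody, and the titles of all 4 carry the name KRAB-IDR3-TCF3, which the labels leave unexplained. Its title concerns the density of H3K9me3 and contacts held by condensates of HP1a, a protein that binds this mark. Both lists name their peaks as immunoprecipitations, but the labels tie list 1 to the input samples and list 2 to the antibody samples, so neither could be placed with a group. The lists are described side by side, no value has a replicate error, and read depth is unknown because peak lists carry no counts.

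H3K9me3 is deposited by the SUV39H and SETDB1 methyltransferases and is read by HP1 proteins, which compact the marked chromatin. It is the classical mark of constitutive heterochromatin, of which the satellite repeats around centromeres are the main example. Those repeats are mostly missing from hg19, where a gap of fixed length stands in for them. The flanks begin at the gap edges as placed here, and whether all of their sequence is assembled was not checked. Covered shares use the whole flank, including any unassembled part, and distances to the gap are distances to these edges. The flanks hold stretches of satellite repeats, segmental duplications, gene clusters such as zinc finger and olfactory receptor genes, and ordinary gene-bearing or gene-poor chromatin.

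The gaps used to place the flanks were nearly free of peaks. In 11 of the 15 gaps neither list had a peak, and in the other 4 the covered length was at most 4762 bp. The nearest peak lay a median of 14.5 kb from the gap edge in list 1 and 14.4 kb in list 2, and at most 105 kb and 154 kb. Stretches of at least 100 kb without a peak in either list were found in 14 of the 30 flanks, against 16% of 1432 windows of 2 Mb elsewhere on chromosomes 1 to 22 and X. These stretches took 5.96 Mb or 9.93% of the flanks, against 1.96% of the rest of the same arms. They lay in 9 short-arm and 5 long-arm flanks, and 4 flanks had at least 500 kb of them. Why these stretches held no peak was not tested.

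Peak coverage of the flanks was not uniform, and by number most of the peaks behind it were weak. Of the 5274 flank peaks of list 1, 58 met a limit of 1.3 for the −log10 q. Of the 4714 of list 2, 211 met it. The share of all peaks meeting this limit was not computed. At a −log10 q of at least 2, 32 flank peaks of list 1 and 58 of list 2 passed. On chromosomes 1 to 22 and X as a whole, 137 of 326674 and 671 of 264919 passed. Weak peaks were thus not particular to the flanks. The lists as a whole reached down to a −log10 p of 1.02 in list 1 and 1.58 in list 2. Covered shares therefore describe mainly weak peaks. Peaks of list 1 covered 43.8% of the pooled flanks, against 50.9% of the rest of the same arms, a ratio of 0.861. Peaks of list 2 covered 29.3% of the flanks, against 28.9% of the rest, a ratio of 1.02. The first ratio turned to 1.12 when the weaker peaks of list 1, those under the lowest −log10 p found in list 2, were dropped. This kept only 62093 of the 326674 peaks of list 1 on chromosomes 1 to 22 and X. The second ratio turned to 0.969 when chromosome 3 was left out. It was also under 1 without chromosome 5, 6, 11 or 12, at 0.987, 0.974, 0.988 and 0.977 in that order. Counting length in both lists alone gave 1.05. Peaks with a −log10 q of at least 2, which are few, gave 17.5 in list 1 and 6.58 in list 2. These were 32 and 58 flank peaks, and 20 and 14 flanks held none. At this limit 9 and 13 flanks exceeded the rest of their arm. In list 1 a single peak of 162 kb on the long arm of chromosome 10 was part of their 412 kb of summed width. With the peak-free stretches taken out of flanks and arms, the ratios were 0.937 and 1.11. The flanks differed among themselves far more than the remainders of the arms did. In list 1 the shares of the 30 flanks spanned 2.40% to 84.2%, with a median of 40.7% and an SD over flanks of 18.9 percentage points, against 34.5% to 71.3% and an SD of 8.89 for the rest of the arms. In list 2 they spanned 1.12% to 67.0%, with a median of 27.4% and an SD of 15.02, against 17.9% to 50.9% and an SD of 8.74. An arm is much longer than its flank, and windows of the same length as a flank spread as widely, the SD over the 1432 windows being 19.8 percentage points for list 1 and 16.1 for list 2.

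Covered more than the rest of their own arm were 9 of 30 flanks in list 1 and 14 in list 2. The same was true of 49.4% and 44.5% of the 1046 windows of 2 Mb that make up the rest of these arms. The 9 flanks of list 1 were among the 14 of list 2, so 9 flanks lay above their arm in both lists (windows 41.9%), 16 lay below in both, and 5 lay above in list 2 alone. The 9 were both flanks of chromosomes 3 and 12, the short-arm flanks of 5 and 16 and the long-arm flanks of 4, 6 and 11. The 5 were the long-arm flanks of 7, 10 and 18 and the short-arm flanks of 6 and 11. No flank lay above its arm in list 1 alone. With peak-free stretches taken out, 12 flanks lay above their arm in list 1 and 14 in list 2. On chromosomes 3 and 12 both flanks were above the rest of their arms in both lists, and on 5 chromosomes both flanks were below in both lists. A flank's share was almost unrelated to that of the arm it belongs to, with a Spearman's rho over the 30 flanks of 0.0167 in list 1 and 0.0447 in list 2. These are descriptions across flanks, which share library, depth and pairs of chromosomes.

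**Figure D1:**
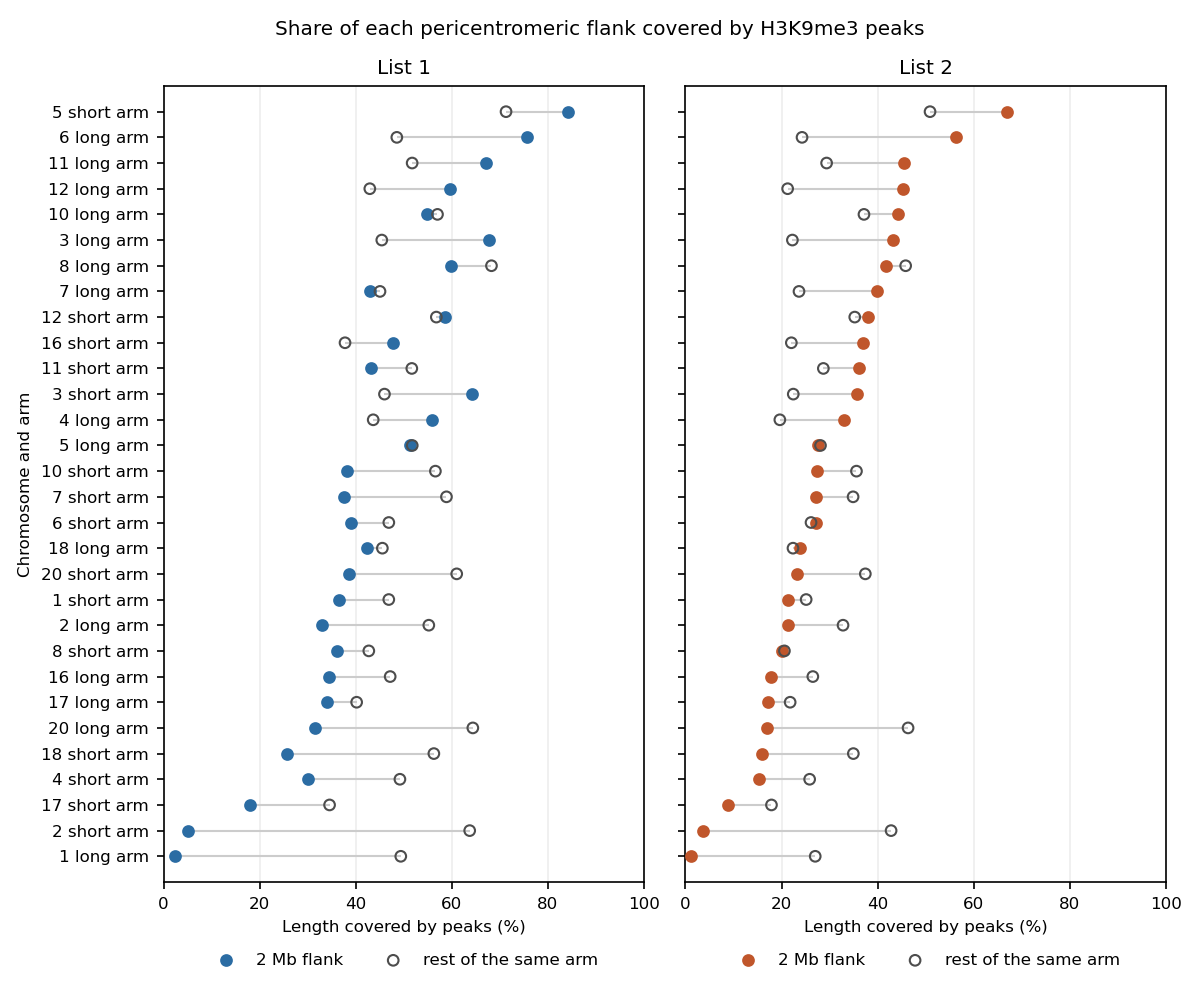
Share of length covered by peaks (%, x axis) in each 2 Mb flank (filled) and in the rest of the same arm (open), for list 1 and list 2, ordered from the highest to the lowest by the lower of the lists. The short arm of chromosome 5 is highest at 84.2% and 67.0%, and the long arm of chromosome 1 is lowest at 2.40% and 1.12%.

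The flank most covered by peaks was that of the short arm of chromosome 5, from 44410001 to 46410000. Peaks covered 84.2% of it in list 1 and 67.0% in list 2, against 71.3% and 50.9% of the rest of that arm, which was itself the most covered arm in both lists. It was the 1 flank covered over 60% in both lists, a level reached by 3.35% of the 1432 other windows. Of these windows 98.5% were covered less in list 1 and 98.3% in list 2. Peaks less than 10 kb apart joined there into a domain of 1359 kb in list 1, from 45046704 to 46405303, which ended 4.70 kb before the gap. In list 2 the longest domain of this flank was 628 kb. Lengths of such domains outside the flanks were not measured. No peak of this flank was strong, the highest fold being 2.65 in list 1 and 3.32 in list 2.

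The flank of the long arm of chromosome 6, from 61830001 to 63830000, was second in both lists. It was covered 75.6% in list 1 and 56.2% in list 2, against 48.5% and 24.3% of the rest of the arm, and its ratios to the rest, 1.56 and 2.32, were the highest of the 30 flanks in both lists. It holds KHDRBS2, a long gene for an RNA-binding protein expressed mainly in brain. The outer 1651 kb formed a single domain of list 1, from 62178607 to 63829179, whereas the longest domain of list 2 was 674 kb. The 0.5 Mb beside the gap was covered 62.7% and 53.4%, and the 3 further steps of 0.5 Mb between 75.7% and 83.5% in list 1 and between 53.4% and 61.1% in list 2.

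The long arms of chromosomes 11, 12 and 10 made up the rest of the 5 most covered flanks by the lower of the lists. On the long arm of chromosome 11, where olfactory receptor genes lie, the flank was covered 67.2% in list 1 and 45.4% in list 2, against 51.7% and 29.4% of the rest of the arm. On the long arm of chromosome 12 it was covered 59.6% and 45.3%, against 42.9% and 21.3%. On the long arm of chromosome 10 it was covered 54.9% and 44.3%, against 57.0% and 37.2%, and thus lay below its arm in list 1 and above it in list 2. In list 1 alone the long arm of chromosome 3 (67.7%) and its short arm (64.2%) also exceeded 60%. In all, 5 of 30 flanks were over 60% in list 1, where 24.3% of other windows were, and 1 was in list 2, where 3.35% were.

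At the other end were 2 flanks with very little of their length covered. The flank of the long arm of chromosome 1, from 142500001 to 144500000, lies beyond a large block of classical satellite heterochromatin. Peaks covered 2.40% of it in list 1 and 1.12% in list 2, against 49.4% and 27.0% of the rest of the arm. It held 32 and 16 peaks, and 1435 kb of it was taken by stretches of at least 100 kb without a peak. With these stretches taken out of flank and arm, the ratio to the rest was 0.166 in list 1 and 0.142 in list 2. The flank of the short arm of chromosome 2, from 90330001 to 92330000, was covered 5.07% and 3.71%, against 63.7% and 42.8% of the rest of the arm, by 56 peaks in list 1 and 40 in list 2. A single stretch of 1150 kb had no peak, and the ratios with such stretches taken out were 0.184 and 0.200.

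The flank of the short arm of chromosome 17 came next from the bottom, at 18.1% in list 1 and 8.88% in list 2, against 34.5% and 17.9% of the rest of the arm. The short arm of chromosome 4 followed, at 30.1% and 15.3%, against 49.2% and 25.9%. The short arm of chromosome 18 was covered 25.6% and 15.9%, against 56.3% and 34.9%. These 5 flanks were the least covered by the lower of the lists, and 4 of them are on short arms. The remaining 20 flanks were covered between 31.5% and 67.7% in list 1 and between 17.0% and 43.2% in list 2. Among them the long arm of chromosome 4 was covered 55.9% and 32.9%, against 43.6% and 19.7% of the rest of the arm, and so lay well above it. The long arm of chromosome 5 was close to the rest of its arm, at 51.3% and 27.6%, against 51.8% and 28.1%. So was the long arm of chromosome 18, at 42.3% and 23.8%, against 45.5% and 22.4%. Chromosome 17 lay below on the long arm, at 34.0% and 17.2%, against 40.2% and 21.8%.

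Chromosome 20 had flanks less covered than its arms on both sides. Its long-arm flank was covered 31.5% in list 1 and 17.0% in list 2, against 64.4% and 46.3% of the rest of the arm, which gave ratios of 0.490 and 0.366. Its short-arm flank was covered 38.6% and 23.3%, against 61.0% and 37.4%. Chromosome 3 showed the opposite. Its short-arm flank was covered 64.2% and 35.7%, against 46.0% and 22.4%, and its long-arm flank 67.7% and 43.2%, against 45.4% and 22.3%. The longest domain of list 1 in any flank, 1659 kb from 93843835 to 95502779, lay in the long-arm flank. In list 2 the longest domain of that flank was 458 kb. The short-arm flank of chromosome 3 holds EPHA3, which encodes a receptor tyrosine kinase for ephrins.

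Within a chromosome the long-arm flank was usually the more covered by peaks. The short-arm flank was covered more than the long-arm flank on 4 of 15 chromosomes and the long-arm flank on the other 11, with the same chromosomes in both lists. For the rest of the arms, the short arm was covered more on 46.7% of the 15 chromosomes in list 1, on 53.3% in list 2 and on 46.7% in both. Short-arm flanks averaged 40.2% ± 18.9 in list 1 and 27.0% ± 15.1 in list 2 (SD over 15 flanks), and long-arm flanks averaged 47.5% ± 18.8 and 31.7% ± 15.1. Within chromosomes, the difference of short minus long arm averaged −7.36 ± 21.4 percentage points in list 1 and −4.70 ± 18.4 in list 2 (SD over 15 chromosomes).

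By the mean of the lists, the long arm led by most on chromosomes 6, 2 and 8. On chromosome 6 the short-arm flank was covered 39.1% in list 1 and 27.2% in list 2, against 75.6% and 56.2% of the long-arm flank. On chromosome 2 the values were 5.07% and 3.71% on the short arm, against 33.1% and 21.4% on the long arm. On chromosome 8 they were 36.2% and 20.1%, against 59.9% and 41.7%. The short arm led on chromosomes 5, 1, 16 and 20. On chromosome 5 its flank was covered 84.2% and 67.0%, against 51.3% and 27.6% on the long arm. On chromosome 1 the values were 36.5% and 21.4%, against 2.40% and 1.12%. On chromosome 16 they were 47.7% and 36.9%, against 34.5% and 17.8%. The arms were closest on chromosome 12, at 58.5% and 38.1% on the short arm, against 59.6% and 45.3% on the long arm, on chromosome 3, given above, and on chromosome 20. With peak-free stretches taken out, chromosome 11 joined the 4 chromosomes in list 2, with a short-arm lead of 0.0331 percentage points. With chromosomes 1 and 16 left out, 2 of 13 chromosomes had the more covered flank on the short arm.

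**Figure D2:**
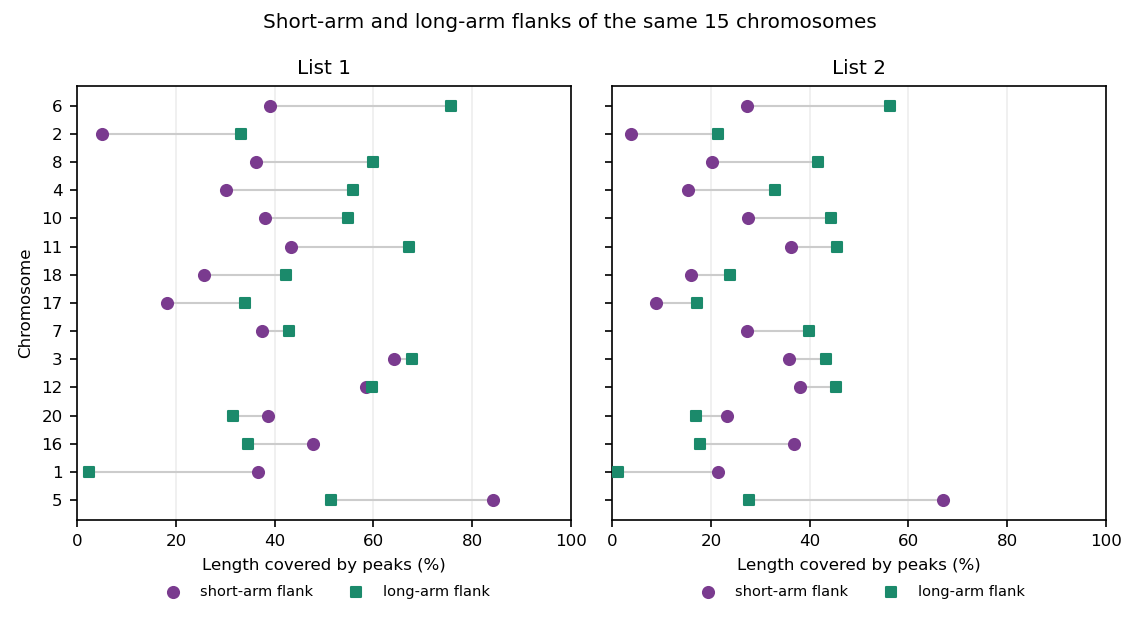
Share of length covered by peaks (%, x axis) in the short-arm flank (circles) and long-arm flank (squares) of each of the 15 chromosomes, in list 1 and list 2, ordered by the mean difference. Squares lie to the right of circles on 11 chromosomes, and chromosomes 20, 16, 5 and 1 at the bottom show the reverse.

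Coverage did not change evenly with distance from the gap. In list 1 the mean share over the 30 flanks was 41.3% ± 26.8 (SD over flanks) in the 0.5 Mb beside the gap, 40.5% ± 24.9 in the next 0.5 Mb, 48.2% ± 23.4 from 1 to 1.5 Mb and 45.4% ± 24.4 from 1.5 to 2 Mb. In list 2 it was 32.2% ± 25.3, 26.6% ± 18.2, 31.2% ± 20.7 and 27.3% ± 18.1. The innermost step over the outermost was 0.909 in list 1 and 1.18 in list 2. With list 1 held to the lowest −log10 p of list 2 as above, which kept 62093 of its peaks, its value turned to 1.38. Just outside the flanks, from 2 to 2.5 Mb, the means were 47.0% ± 23.5 and 27.8% ± 19.0, close to those of the outermost 0.5 Mb of the flanks. Within flanks, the innermost step was covered less than the outermost in 18 of 30 flanks in list 1 and in 14 of 30 in list 2. The difference within a flank, innermost minus outermost, averaged −4.12 ± 33.3 percentage points in list 1 and 4.88 ± 29.8 in list 2 (SD over 30 flanks).

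Single flanks had steep and opposite gradients. On the long arm of chromosome 8 the 4 steps outward from the gap were covered 84.9%, 69.4%, 49.7% and 35.8% in list 1 and 78.1%, 49.9%, 29.1% and 9.59% in list 2. Chromosome 16 was alike, its short-arm steps being covered 86.5%, 65.6%, 35.6% and 3.05% in list 1 and 76.2%, 47.2%, 23.8% and 0.246% in list 2. The order was the reverse on chromosome 20, whose short arm had 11.9%, 20.9%, 47.2% and 74.5% in list 1 and 5.22%, 9.24%, 27.98% and 50.7% in list 2. The highest value beside a gap was reached on the short arm of chromosome 5, at 95.9% and 92.8%. The lowest was that on the short arm of chromosome 4, at 2.171% and 0.855%, where a stretch of 194 kb had no peak.

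**Figure D3:**
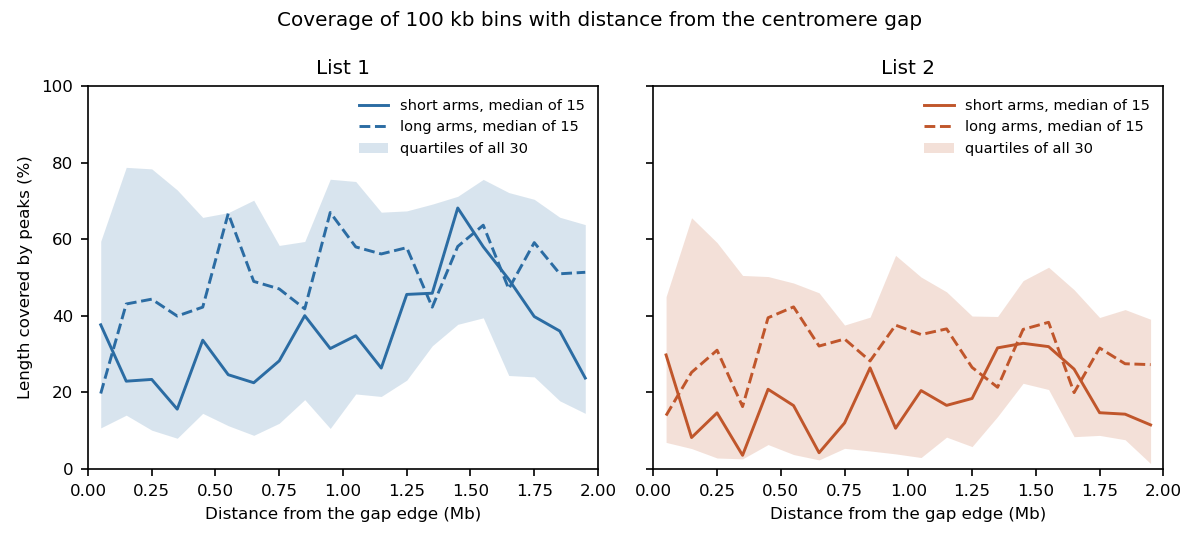
Share of each 100 kb bin covered by peaks (%, y axis) against distance from the edge of the centromere gap (Mb, x axis) in list 1 and list 2. Lines are medians of 15 short-arm flanks (solid) and 15 long-arm flanks (dashed), and the shaded band spans the quartiles of all 30 flanks, which are far apart at every distance.

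On chromosomes 1 to 22 and X, most of the strongest peaks of both lists lay in the flanks. The authors' fold enrichment of a peak compares its signal with the background estimated by the peak caller. Of the 17 peaks of list 1 on these chromosomes with a fold of at least 5, which are 0.0052% of its peaks there, 13 lay in the flanks. Of the 24 of list 2, which are 0.00906%, 17 did. Another 6 peaks of list 1 and 12 of list 2 at this fold lay on other sequences of the assembly, so the flanks held 13 of 23 and 17 of 36 in the whole lists. These peaks lay in 8 flanks in list 1 and 9 in list 2, with 8 in common, whereas 0.14% and 0.279% of the other 2 Mb windows held one. All 13 and 17 overlapped a peak of the other list by at least 1 bp. The share of all peaks doing so was not computed. By length, 61.0% of list 1 in the flanks was also in list 2, and 91.3% the other way. In list 1, 10 of 13 lay within 100 kb of the gap, and in list 2 13 of 17 did. The share of all flank peaks lying there was not computed. The mean covered share of these 100 kb was 36.8% in list 1 and 29.1% in list 2. No correction for copy number or for repeats was applied here to folds or covered lengths.

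The highest fold of both whole lists belonged to the short arm of chromosome 6. The peak from 58776164 to 58779647 had a fold of 279 in list 1, the matching peak of list 2 had a fold of 298, and both lay 50.3 to 50.4 kb from the gap edge. The flank around it was covered 39.1% and 27.2%, against 46.9% and 26.1% of the rest of the arm, and its median fold was 1.76 and 2.22. The next highest lay on the long arm of chromosome 7, from 61967152 to 61972674, with folds of 166 and 207. Outside the flanks no peak on chromosomes 1 to 22 and X exceeded a fold of 32.3 in list 1 and 29.2 in list 2, and none on other sequences exceeded 19.7 and 24.1. The peak on the long arm of chromosome 7 was 917 kb from the gap edge, in the step from 0.5 to 1 Mb. The step beyond it was covered 91.8% and 86.7%.

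The short arm of chromosome 2, one of the least covered flanks, held the most peaks of this strength. It had 5 in each list, of which 4 lay within 20.2 kb of the gap, between 92303772 and 92325991 in list 1, with folds of 5.996 to 15.1 in that list and 5.55 to 14.8 in list 2. The fifth stood alone at the outer end of the flank, 1948 kb from the gap, with a width of 677 bp in list 1 and folds of 14.2 and 20.5. The widest was on the long arm of chromosome 16, beside its satellite block, where a peak of 28384 bp from 46385849 to 46414232 had a fold of 16.9 in list 1 and its partner in list 2 a fold of 19.9. In list 2 another pair of peaks followed, 36.6 and 47.2 kb from the gap, with folds of 7.14 and 5.12.

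On the short arm of chromosome 1 a peak from 121480999 to 121485438 had folds of 21.2 and 23.3, 14.6 kb from the gap. A peak of list 2 from 121357663 to 121360931 had a fold of 5.77 there, and the overlapping peak of list 1 had 2.79. The sparsely covered long-arm flank of the same chromosome had a peak at 5.63 and 7.36, 35.4 kb from the gap. On the long arm of chromosome 8, a pair of peaks of about 1 kb within 4 kb of the gap had folds of 6.92 and 8.30 in list 1 and of 6.54 and 9.23 in list 2. On its short arm a peak of list 2 reached 5.48, and the overlapping peak of list 1 reached 3.55. On the long arm of chromosome 10 a peak 411 kb from the gap had a fold of 5.48 in list 1 and 5.49 in list 2.

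At a weaker limit, a −log10 q of at least 2, the flanks held 32 of 137 peaks of list 1 (23.4%) and 58 of 671 of list 2 (8.64%) on chromosomes 1 to 22 and X. Such peaks were 0.0419% and 0.253% of all peaks there. They lay in 10 and 16 flanks, and 4.61% and 22.5% of the other windows held one. The long arm of chromosome 10 had 14 of them in list 2, with folds from 3.39 to 5.49 and a summed width of 333 kb, spread from 105 to 1854 kb from the gap. In list 1 it had 2, of which 1 alone was 162 kb wide. The long arm of chromosome 7 had 7 in each list, with summed widths of 101 and 168 kb.

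**Figure D4:**
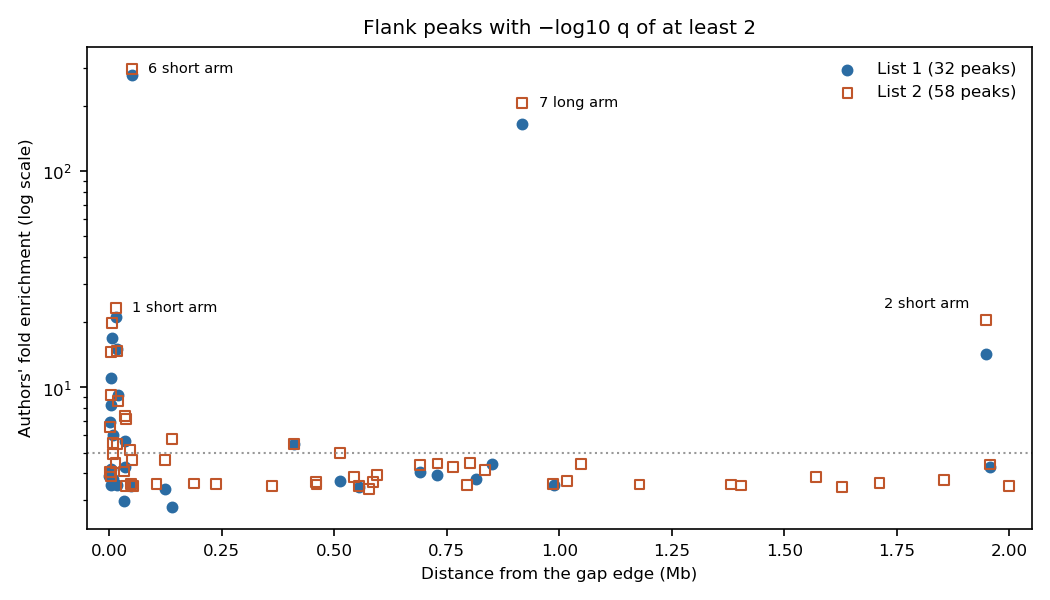
The authors' fold enrichment (y axis, log scale) of each flank peak with a −log10 q of at least 2 against its distance from the gap edge (Mb, x axis), for 32 peaks of list 1 (filled circles) and 58 of list 2 (open squares). The dotted line marks a fold of 5, above which most peaks lie within 0.1 Mb of the gap, and those farther out are on the long arms of chromosomes 7 and 10, the outer short arm of chromosome 2 and, in list 2, the short arm of chromosome 1.

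Covered length and the highest fold of a flank were at most weakly related. Over the 30 flanks Spearman's rho was −0.255 in list 1 and −0.328 in list 2, and Pearson's r was −0.0724 and 0.0244. The most covered flank, on the short arm of chromosome 5, had the low highest folds given above. Weighted by length, however, the fold in a flank exceeded that of the rest of its arm in 25 of 30 flanks in list 1 and 24 in list 2, where 39.3% and 38.9% of the windows in the rest of these arms did so. The median fold of flank peaks was 1.70 in list 1 and 2.18 in list 2, against 1.64 and 2.12 of all other peaks.

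The flanks held fewer peaks per Mb, and more of their peaks were very wide. There were 87.9 peaks per Mb in list 1 and 78.6 in list 2, against 111 and 89.6 outside the flanks and gaps. The median width was 1996 bp in list 1 and 1785 bp in list 2, against 1973 bp and 1561 bp. Peaks of at least 25 kb made up 2.98% of flank peaks in list 1 and 1.65% in list 2, against 1.73% and 0.563% of other peaks. They held 27.2% and 20.6% of the summed peak width, against 17.3% and 7.43%. The widest peak of the flanks in either list was on the long arm of chromosome 12. It spanned 213 kb from 38209833 to 38422351 in list 1 with a fold of 2.55, and the widest of list 2, of 128 kb from 38218444 to 38346364, lay inside it with a fold of 2.93. Wide peaks held 60.5% and 63.4% of the covered length on the long arm of chromosome 7, and 0% in both lists on the long arm of chromosome 1, the short arm of chromosome 2 and the short arm of chromosome 17.

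The lists ranked the flanks almost alike. Their covered shares had a Spearman's rho of 0.953 over the 30 flanks, and of 0.977 over the rests of the arms. The lists also shared more of their covered length in the flanks. Of the length covered in list 1, 61.0% was also covered in list 2, against 50.2% in the rest of the same arms, and of that covered in list 2, 91.3% was also in list 1, against 88.5%. The first share was above that of the rest of the arm in 22 of 30 flanks, where 40.2% of windows in the rest were. It reached 89.2% on the long arm of chromosome 7, against 45.3% of the rest of that arm, and 80.0% on the short arm of chromosome 11, against 48.3%. In these flanks list 2 covered nearly as much as list 1, 39.9% against 43.0% and 36.2% against 43.2%. The share of list 1 length also in list 2 was lowest on the long arm of chromosome 1, at 37.8%.

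**Figure D5:**
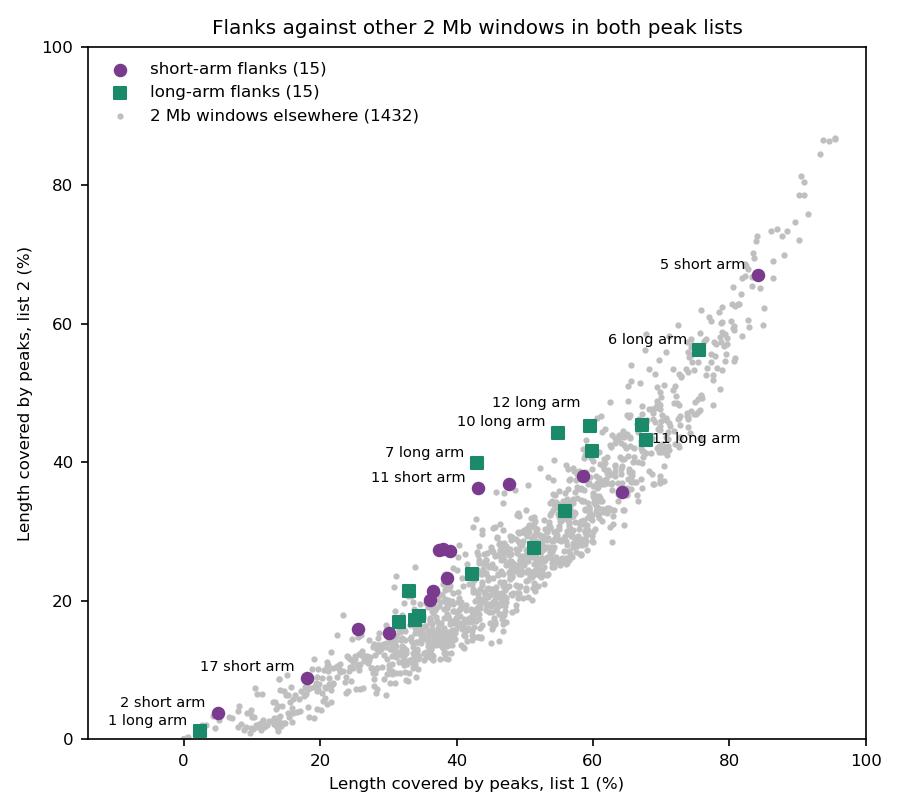
Share of length covered by peaks in list 1 (%, x axis) and in list 2 (%, y axis) for 15 short-arm flanks (circles), 15 long-arm flanks (squares) and 1432 windows of 2 Mb elsewhere (grey). The flanks span most of the range of the windows, and several, such as the long arm of chromosome 7 at 43.0% and 39.9%, lie at the upper edge of the cloud.

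Flanks known to carry zinc finger genes, many of which encode KRAB repressors whose own gene clusters are marked by H3K9me3, were not uniform. Apart from the long arm of chromosome 10, they lay below the rest of their arms in both lists. The short arm of chromosome 10 was covered 38.1% in list 1 and 27.5% in list 2, against 56.6% and 35.6% of the rest of the arm. The short arm of chromosome 7 was covered 37.5% and 27.3%, against 58.9% and 34.9%. The long arm of chromosome 2 was covered 33.1% and 21.4%, against 55.2% and 32.8%, and the short arm of chromosome 20 is given above. Both flanks of chromosome 11 carry olfactory receptor genes, and that of the short arm was covered 43.2% and 36.2%, against 51.7% and 28.7%. The long arm of chromosome 16, beside a satellite block like that of chromosome 1, was covered 34.5% and 17.8%, against 47.2% and 26.5%. Gene content was taken from general knowledge of hg19, since no gene positions on that build were used, and coverage of single genes was not analysed here.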

How the data were processed

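Chromatin immunoprecipitation and sequencing was done on cross-linked U2OS cells. Per the submitters' processing notes, the tools were MACS2 2.2.7.1, Bowtie2 2.5.0, Trim Galore 0.6.7 and bcl2fastq 2.17, with hg19 as the build. The sources used here do not state cutoffs, use of the input, duplicate removal or pooling. The deposited fold of each peak is a ratio to the peak caller's background, and the deposited −log10 p and −log10 q are the authors' values too. None was recomputed. Whether the samples of each group were separate cultures is not stated. As peak lists hold no counts, depth is unknown and limits the precision to an unknown degree.

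Covered length was the union of a list's peaks within a flank, and a peak was counted where at least 1 bp lay in the flank. The rest of an arm ran from the flank to the chromosome start or last peak end. Coordinates are 1-based. No test across replicates was possible, and all comparisons are descriptions. The 5 most and 5 least covered flanks, the largest and smallest differences between arms, flanks with a fold of at least 5 and fixed content classes were named. The members, lists and comparisons were chosen with earlier results of these data known. Coverage and overlap steps were tested on simulated data. Alternatives were flanks of 1 and 5 Mb, stricter peaks, length in both lists, removal of peak-free stretches, other references and chromosomes left out. Sequences are not printed, as no hg19 sequence was used here. Software versions were pandas 2.3.3, scipy 1.17.1, numpy 2.4.6 and matplotlib 3.10.9 under Python 3.11.15.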

Additional observations from a re-analysis of the deposited data

How the results depend on the processing

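Of 110 values under other settings, 85 kept their direction and stayed within 1.5 times the reported value (correlations within 0.1), 14 moved further and 11 turned. Within that tolerance the short arm led on 6 chromosomes with flanks of 1 Mb in list 1 and with flanks of 5 Mb in list 2, in place of 4, and flanks of 5 Mb held 85 peaks of list 2 at a −log10 q of at least 2, in place of 58. No replicate was left out and no paired analysis was possible because neither list was assigned to a sample. The cause of the changes was not tested. The ratio of flanks to the rest of their arms in list 1 (0.861) turned to 1.12 at the lowest −log10 p of list 2, to 1.05 for length in both lists and to 17.5 at a −log10 q of at least 2. That of list 2 (1.02) was 6.58 at this q and turned to 0.999 with flanks of 5 Mb. Leaving out 1 chromosome in turn, chosen after seeing the data, kept list 1 between 0.821 and 0.912. It turned list 2 to 0.969 without chromosome 3, 0.974 without 6, 0.977 without 12, 0.987 without 5 and 0.988 without 11, and list 2 was highest at 1.09 without chromosome 2. The other alternative chosen after seeing the data, peaks with a fold under 5, gave 0.858 and 1.01. Flanks above their arm in list 1 numbered 15 in place of 9 at the limit of list 2 and for length in both lists. The limit of list 2 kept 62093 of the 326674 peaks of list 1. Without chromosomes 1 and 16 the short arm led on 2 chromosomes in each list. Flanks over 60% in both lists numbered 3 with flanks of 1 Mb, 0 with 5 Mb and 0 at a −log10 q of at least 2. The innermost over the outermost 0.5 Mb in list 1 (0.909) turned to 1.00 for peaks above the median fold and to 1.38 at the limit of list 2. The rank correlation of flanks between the lists was 0.679 for the number of peaks and 0.699 for the median fold. A fold of at least 3 gave 42 and 143 flank peaks, and a −log10 q of at least 1.3 gave 58 and 211.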
